A study of Mus musculus with 6 samples.

Results

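The mechanistic target of rapamycin (mTOR) kinase works in a pair of assemblies and is restrained by the TSC complex, and the RNA of the 10 genes that encode this machinery was examined in liver tumour cell lines. The genes were taken by name from the deposited table. They comprise Mtor, Mlst8 and Deptor, whose products belong to both mTOR complexes, Rptor and Akt1s1 of mTOR complex 1 (mTORC1), Rictor and Mapkap1 of mTOR complex 2 (mTORC2), and Tsc1, Tsc2 and Tbc1d7 of the TSC complex. Each of the 10 symbols had 1 row among the 53465 genes of the table, and all 10 passed the filter on low counts, which kept 11510 genes.

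mTOR is a protein kinase that couples growth factors, amino acids and cellular energy to growth. With the scaffold Raptor it forms mTORC1, which drives protein and lipid synthesis and holds back autophagy, and with Rictor and mSin1 it forms mTORC2, which phosphorylates AKT and related kinases. DEPTOR and PRAS40 are inhibitory subunits, and the TSC complex switches off the small GTPase Rheb, which activates mTORC1. In the liver mTORC1 serves metabolism and regeneration, and it is often active in hepatocellular carcinoma.

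RNA sequencing was performed on 6 primary cell lines derived from liver tumours of C57BL/6 mice, each from a tumour of a different mouse. The 3 Myc_Utx lines (2A, 2B and 2D) came from Kdm6a-deficient tumours, Utx being another name of Kdm6a, which encodes a histone H3 lysine 27 demethylase of the COMPASS-like complexes. The 3 Myc_p53 lines (1, 2 and 3), from p53 knockout tumours, were the control group. Tumours of both groups were driven by a c-myc transposon delivered to the liver by hydrodynamic tail vein injection, together with Cas9 and a guide RNA against the respective gene. There was thus no line with intact p53 and intact Kdm6a, and the effects of the 2 deletions cannot be told apart. Each line represents 1 tumour, its clonality not given in the sources used here, and was kept in culture, and the p-values measure the spread between such lines.

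The libraries held 4656103 to 5473042 counts in Myc_Utx lines and 5370608 to 6937497 in Myc_p53 lines. The deleted genes gave a mixed check of the labels. Trp53, looked up after its values were seen, had 1239 to 1578 counts in Myc_Utx and 186 to 251 in Myc_p53 lines. Kdm6a had 199, 244 and 220 counts in Myc_Utx lines and 440, 348 and 298 in Myc_p53 lines. Its log2 fold change of -0.39 did not pass the test (edgeR, adjusted p = 0.243). With transcript length and GC content accounted for it was -0.23 (edgeR, adjusted p = 0.524). Small deletions made by Cas9 need not remove the transcript, but whether this applies here was not tested. The methods name the first group after Mll3 where they describe the sequencing, and Kmt2c, the current symbol of that gene, fell by 0.73 on the log2 scale (edgeR, adjusted p = 0.0289), with a value of -0.35 (adjusted p = 0.213) once transcript length and GC content were accounted for. Markers of hepatocytes were uneven. Alb had 4 to 26 counts and Serpina1a at most 3 in any line. Krt8 had 61, 200 and 0 counts in Myc_Utx lines and 4537, 83 and 3130 in Myc_p53 lines. Krt18 had 48, 256 and 0 against 2984, 108 and 2208, and Apob at most 6 against 88, 71 and 378. Apoa1 went the other way, with 3, 5 and 3 counts against 0, 1 and 2. Fgb had 11, 6 and 199 against 160, 100 and 104, and was thus highest in 2D. The list of 10 added up to 28.9 to 95.7 CPM (counts scaled to a common library total after TMM normalisation) in Myc_Utx and 71.0 to 1245 in Myc_p53 lines. Of its 5 tested members 1 was called lower, where 7.69% of all genes tested were called lower and 6.99% higher. This count is no support, since Apob, with at most 6 counts in any Myc_Utx line, passed the filter on low counts only through Myc_p53. Of the 12 macrophage markers, 7 were tested and 6 of these were called lower in Myc_Utx. Except for Cd68, none of the 12 had more than 5 counts in any Myc_Utx line. Apart from Cd68, those tested thus passed the filter on low counts only through Myc_p53, and their calls are no support. The macrophage list added up to 2.79 to 6.37 CPM in Myc_Utx and 42.8 to 116 in Myc_p53 lines, with Ptprc and Marco at 3 counts or fewer everywhere. The stellate cell and fibroblast list added up to 1953 to 2692 CPM in Myc_Utx and 41.9 to 3164 in Myc_p53 lines, with no member called, and the bile duct list to 510 to 1441 and 153 to 1462, also with none called. Of 6 endothelial markers none was tested, and Pecam1, Tek, Stab2 and Lyve1 had 3 counts or fewer everywhere. The part of such cells or states in the differences given here was not tested, and in bulk RNA fewer cells of a type cannot be told apart from less RNA per cell.

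The 10 genes differed widely in size. Their deposited transcript lengths, which for 9 of the 10 equal the merged exons of all isoforms in GENCODE M21, ran from 3072 bases for Akt1s1 to 16930 bases for Rictor. Mtor (4), Deptor and Rictor (both 15), Rptor (11), Akt1s1 (7), Mapkap1 and Tsc1 (both 2), Mlst8 and Tsc2 (both 17) and Tbc1d7 (13) are spread over 7 chromosomes, given in parentheses. Deptor occupies chr15:55112317-55259271, Akt1s1 chr7:44848991-44855421 and Tsc1 chr2:28641228-28691167, all on the plus strand of GRCm38. The strand setting of the counting was not stated, so reads from bases shared with a gene on the opposite strand cannot be told apart. Mlst8 shares 997 exon bases (22.5% of its exons) with Bricd5, which had 0 counts in every line. Tsc2 shares 693 bases (7.20%) with Pkd1, Akt1s1 89 bases (2.90%) with Tbc1d17, Deptor 303 bases with Gm9920, which had at most 2 counts, and Rptor 84 bases with Rptoros, also at 2 counts or fewer. Akt1s1 also holds the 73 bases of Mir707, at 0 counts. The other overlapping genes, Angptl7, Gm23318, Gm24002, Gm11761, Gm23663, Gm13408, Gm13406 and Gm13407, lie in introns of Mtor, Rptor or Mapkap1 and had at most 3 counts in any line.

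Of the genes that differed between the groups, Akt1s1 was higher and Tsc1 lower in Myc_Utx, and their promoters are shown with that of Tbc1d7, the member whose promoter holds the motif recognised by Myc. RefSeq (GRCm38.p6) gave a promoter for 9 of the 10 genes, with 2 starts for Mapkap1, but not for Deptor. The 250 bases before each start were searched on both strands for CACGTG, the E-box bound by Myc and its partner Max, for GGGCGG, the box bound by Sp1-like factors, and for CCAAT, bound by NF-Y. Matches are in capitals, and none of the matches in these 3 windows overlap.
Akt1s1, chr7:44850122-44850371, plus strand: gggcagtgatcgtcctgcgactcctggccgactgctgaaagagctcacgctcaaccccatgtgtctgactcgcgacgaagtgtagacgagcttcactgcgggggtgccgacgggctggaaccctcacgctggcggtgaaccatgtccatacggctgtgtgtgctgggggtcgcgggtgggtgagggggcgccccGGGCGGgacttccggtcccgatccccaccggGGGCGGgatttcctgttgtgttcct
Tsc1, chr2:28640983-28641232, plus strand: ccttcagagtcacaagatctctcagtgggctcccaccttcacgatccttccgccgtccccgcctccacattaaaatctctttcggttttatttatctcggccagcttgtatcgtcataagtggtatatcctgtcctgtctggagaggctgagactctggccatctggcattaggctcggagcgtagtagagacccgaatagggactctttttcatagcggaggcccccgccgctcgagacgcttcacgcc
Tbc1d7, chr13:43171502-43171751, minus strand: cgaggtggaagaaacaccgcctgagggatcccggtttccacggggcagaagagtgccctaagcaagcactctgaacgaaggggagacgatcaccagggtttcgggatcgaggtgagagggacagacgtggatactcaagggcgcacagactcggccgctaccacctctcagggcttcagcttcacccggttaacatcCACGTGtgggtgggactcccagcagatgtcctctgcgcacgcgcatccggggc
The window of Akt1s1 held 2 copies of GGGCGG, that of Tsc1 held none of the 3 motifs, and that of Tbc1d7 held 1 CACGTG. Among all 10 windows of the genes, 1 held CACGTG, 5 GGGCGG and 2 CCAAT, where these motifs occurred in 6.04%, 33.0% and 33.8% of 32536 promoters of the same length. The 2 windows of Mapkap1 overlap and share their 2 copies of GGGCGG, and in that of Rictor a GGGCGG and a CCAAT share bases. The Mtor window held 4 copies of CCAAT and 2 of GGGCGG.

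Of the 10 genes, 3 passed the test between Myc_Utx and Myc_p53 cells. Akt1s1 rose, and Deptor and Tsc1 fell, and the products of all 3 restrain mTORC1. The call of Akt1s1 was lost when the median of its chromosome was taken out in each line, and that of Tsc1 when transcript length was accounted for. Deposited counts ran from 72 for Tbc1d7 to 1056 for Mtor. Levels are given as CPM for the lines 2A, 2B and 2D of Myc_Utx and then 1, 2 and 3 of Myc_p53, and differences as log2 fold changes of Myc_Utx minus Myc_p53 with their standard error (SE), from edgeR's quasi-likelihood test with p adjusted over all genes tested. Of the 10, 1 gene was called higher and 2 lower, at an adjusted p under 0.05, where 6.99% and 7.69% of all genes tested were called in these directions. At an unadjusted p under 0.05 stood 6 of the 10, and 35.0% of all genes tested. DESeq2, which called 11.0% of all genes higher and 13.2% lower, called 1 and 5 of the 10, with Mtor, Rictor and Tsc2 added to the lower ones. Groups did not overlap for 1 gene with higher and 5 genes with lower values, against 21.1% and 20.9% of all genes. The log2 fold change was positive for 3 genes and negative for 7, with a median of -0.34, beside -0.01 over all genes tested. The coefficient of variation between lines of a group had a median of 9.55% (Myc_Utx) and 15.6% (Myc_p53) over the 10 genes, and 13.9% and 19.4% over all genes.

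**Figure D1:**
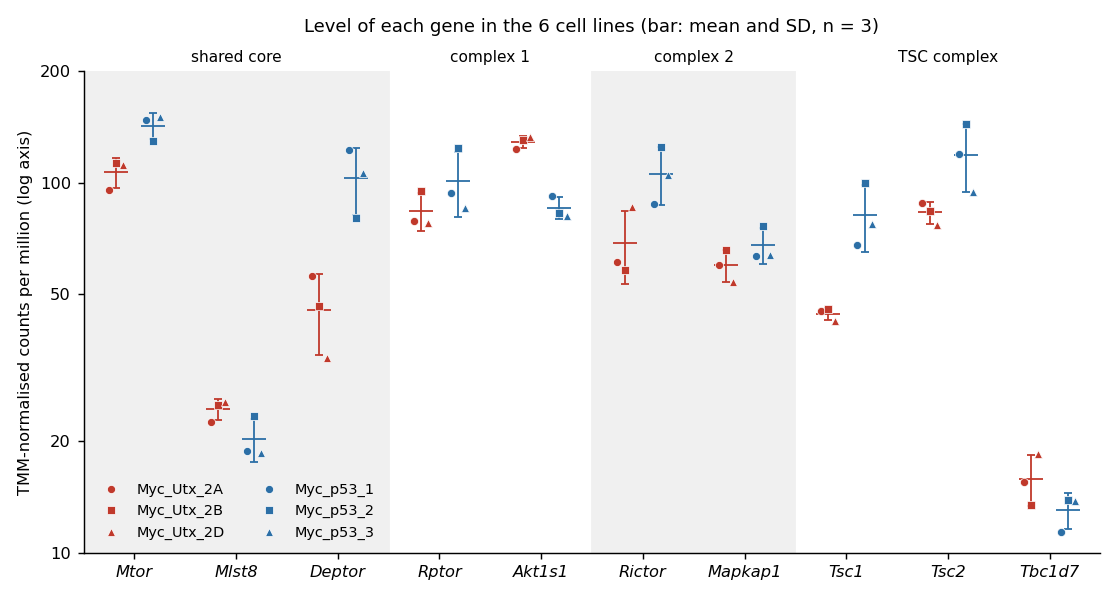
Level of each gene in CPM on a log axis, with red points for the 3 Myc_Utx and blue points for the 3 Myc_p53 lines, bars at the group mean and error bars of 1 SD (n = 3). The groups lie apart for Mtor, Deptor, Akt1s1, Rictor, Tsc1 and Tsc2, and only Akt1s1 has the red points on top among these.

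Among the genes shared by both complexes, Deptor differed most. Deptor encodes an inhibitor that binds mTOR directly. Its level was 56.0, 46.4 and 33.6 CPM in Myc_Utx lines and 122, 80.3 and 107 CPM in Myc_p53 lines. Every Myc_Utx line lay below every Myc_p53 line, with 2A highest in its group and Myc_p53 line 2 lowest in the other. The log2 fold change was -1.18 (SE 0.24, 95% interval -1.77 to -0.60, adjusted p = 0.0293, edgeR), or 2.27-fold more in Myc_p53. With 2 lines left in a group, the difference kept its sign without any 1 line, but it stayed past the threshold only without Myc_p53 line 2. Without 2A, 2B, 2D, Myc_p53 line 1 or Myc_p53 line 3 it ranged from -1.34 to -0.99 with adjusted p between 0.0632 and 0.0943.

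Mtor, the kinase itself, was measured at 95.5, 113 and 112 CPM in Myc_Utx lines and 148, 130 and 151 CPM in Myc_p53 lines. The groups did not overlap, yet the log2 fold change of -0.42 (SE 0.12, adjusted p = 0.0637) missed the threshold. It reached it without Myc_p53 line 2, at -0.48 (adjusted p = 0.0489). Mlst8, which encodes the WD-repeat subunit that binds the kinase domain, had 22.5, 25.1 and 25.6 CPM in Myc_Utx lines and 18.8, 23.4 and 18.5 CPM in Myc_p53 lines. The groups overlapped through Myc_p53 line 2, and the log2 fold change of 0.27 (SE 0.18, adjusted p = 0.313) did not pass the test.

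The pair of mTORC1 genes went separate ways. Akt1s1 encodes PRAS40, a Raptor-bound inhibitor that AKT releases by phosphorylation. Its level was 124, 131 and 133 CPM in Myc_Utx lines and 92.1, 82.9 and 81.4 CPM in Myc_p53 lines. The lines of each group lay close together, with a coefficient of variation of 3.73% in Myc_Utx, the lowest of the 10 genes in that group. The log2 fold change was 0.59 (SE 0.11, 95% interval 0.34 to 0.85, adjusted p = 0.0227, edgeR), a 1.51-fold rise. With the median of its chromosome taken out in each line the value was 0.17 (adjusted p = 0.240), and with transcript length and GC content accounted for as well it was 0.07 (adjusted p = 0.685). Without 2A, 2B, 2D or Myc_p53 line 3 it was 0.55 to 0.64 with adjusted p from 0.0705 to 0.0879. For Tbc1d17, which shares exon bases with Akt1s1, the difference was 0.20 (adjusted p = 0.501).

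Rptor encodes Raptor, the scaffold that presents substrates to mTORC1. It was measured at 78.6, 95.1 and 77.9 CPM in Myc_Utx lines and 93.6, 124 and 85.5 CPM in Myc_p53 lines. The second line of each group was the highest of its group and the groups overlapped. The log2 fold change was -0.27 (SE 0.18, adjusted p = 0.322).

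Neither gene particular to mTORC2 passed the test (edgeR), and 1, Rictor, had an unadjusted p under 0.05, as did 35.0% of all genes tested. Rictor, which encodes the defining scaffold of mTORC2, had 61.0, 58.2 and 86.2 CPM in Myc_Utx lines and 87.5, 125 and 105 CPM in Myc_p53 lines. The groups were separated only by the narrow step between 2D and Myc_p53 line 1, and the log2 fold change was -0.63 (SE 0.21, adjusted p = 0.0884). Mapkap1 encodes mSin1, which recruits substrates to mTORC2. Its 60.0, 65.7 and 53.9 CPM in Myc_Utx lines overlapped with the 63.2, 76.4 and 63.9 CPM in Myc_p53 lines, and its log2 fold change was -0.18 (SE 0.14, adjusted p = 0.413).

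In the TSC complex, Tsc1 fell. Tsc1 encodes hamartin, which stabilises the complex, and was measured at 44.9, 45.5 and 42.3 CPM in Myc_Utx lines and 67.6, 100.1 and 77.1 CPM in Myc_p53 lines. The Myc_Utx lines were nearly alike, with a coefficient of variation of 3.82%, while Myc_p53 lines varied by 20.4%. The log2 fold change was -0.88 (SE 0.17, 95% interval -1.30 to -0.46, adjusted p = 0.0275, edgeR), or 1.84-fold more in Myc_p53. Without 2A, 2B, 2D or Myc_p53 line 3 it was -0.92 to -0.83 with adjusted p from 0.0705 to 0.106.

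Tsc2 encodes tuberin, the subunit with the GTPase-activating domain. It had 88.3, 84.1 and 77.0 CPM in Myc_Utx lines and 119, 144 and 94.2 CPM in Myc_p53 lines. The groups did not overlap, and the log2 fold change of -0.52 (SE 0.17, adjusted p = 0.0902) did not pass the test. Pkd1, the opposite-strand gene with which it shares exon bases, fell by 0.56 (adjusted p = 0.0473, edgeR), with a value of -0.22 (adjusted p = 0.232) under the length and GC offsets described with the transcript lengths. Tbc1d7, the smallest subunit of the complex, had 15.6, 13.5 and 18.5 CPM in Myc_Utx lines and 11.4, 13.9 and 13.8 CPM in Myc_p53 lines. These overlapped, with a log2 fold change of 0.28 (SE 0.22, adjusted p = 0.402). Of the 3 TSC genes, 1 was thus called lower (2 at an unadjusted p under 0.05, where 35.0% of all genes tested stood, edgeR), and none higher at either.

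**Figure D2:**
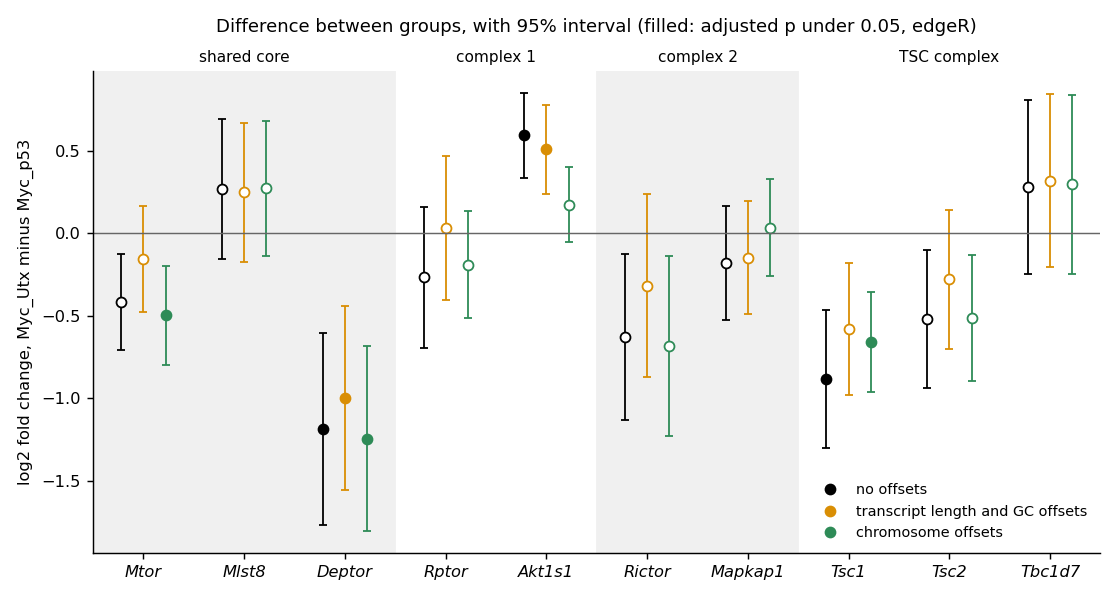
Log2 fold change of each gene (Myc_Utx minus Myc_p53) with its 95% interval from edgeR, without offsets (black), with offsets for transcript length and GC content (orange) and with offsets for the chromosome (green), where filled points have an adjusted p under 0.05. Deptor is filled in all 3, Akt1s1 is open with chromosome offsets at 0.17, and Tsc1 is open with length offsets at -0.58.

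The signs of these fold changes, though not their sizes, went with transcript length. The 3 genes with positive values, Akt1s1, Mlst8 and Tbc1d7, have deposited lengths of 3072, 3366 and 4042 bases, and the 6 longest genes, from Deptor with 8874 bases to Rictor, all had negative values. Mapkap1, with 4059 bases, had the smallest negative value. Among the 6 longest, Deptor, the shortest, had the most negative value (-1.18), and Rptor, with 13471 bases, the least negative (-0.27). The same tendency ran through the whole table, where the median log2 fold change was 0.34 in the shortest and -0.30 in the longest of 10 bins of length, with a Spearman correlation of -0.249 across the 11510 genes, which are not independent replicates and share the same libraries. Mtor, Rptor, Rictor and Tsc1 fell in the longest bin, Deptor and Tsc2 in the next, with a median of -0.16, and Akt1s1 in the third bin from the shortest, with a median of 0.13. Against its own bin Rptor lay at the 53.3rd percentile and Mtor at the 41.8th, whereas Deptor lay at the 10.8th, Tsc1 at the 18.9th and Akt1s1 at the 83.2nd. Each Myc_Utx line had more counts on short and each Myc_p53 line more on long transcripts than the mean of the 6, with correlations of -0.276 to -0.159 and 0.137 to 0.249, the largest in 2D and in Myc_p53 line 3.

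**Figure D3:**
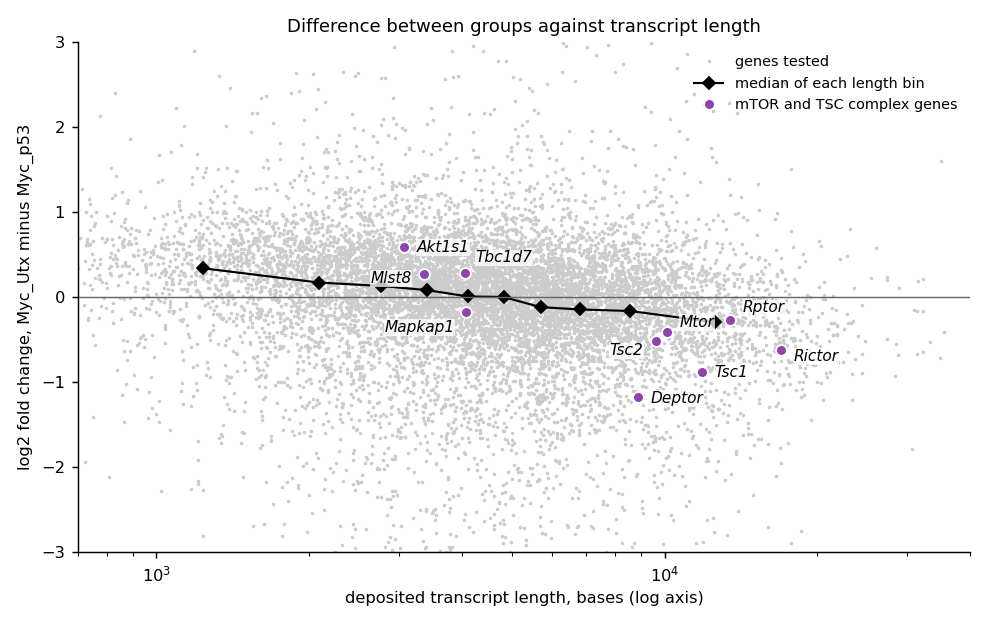
Log2 fold change (Myc_Utx minus Myc_p53) against the deposited transcript length on a log axis, with genes tested in grey, the median of each of 10 length bins as black diamonds and the 10 mTOR and TSC complex genes in purple. Bin medians descend from 0.34 to -0.30, and Deptor and Tsc1 lie below, Akt1s1 above the line, while a few genes fall outside the axes.

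Offsets, per-gene corrections fitted in each line on transcript length and GC content, brought the correlation to -0.01. Deptor remained lower at -0.998 (SE 0.23, adjusted p = 0.0443) and Akt1s1 higher at 0.51 (SE 0.11, adjusted p = 0.0389), and both groups of lines stayed apart for these genes. Tsc1 kept its sign and its separation between groups but not the call, at -0.58 (SE 0.17, adjusted p = 0.0712). The values of Mtor (-0.15), Rictor (-0.32) and Tsc2 (-0.28) came closer to 0 and their groups overlapped, while Rptor turned to 0.03 (adjusted p = 0.914). Mlst8, Mapkap1 and Tbc1d7 moved little, to 0.25, -0.15 and 0.32. Then 1 gene was called higher and 1 lower, against 5.85% and 5.08% of all genes, and groups did not overlap for 1 higher and 2 lower genes, against 21.5% and 18.2%. The median of the 10 was -0.15, beside 0.03 for all genes. Deptor has nearly the same length by either annotation, since its reference transcript of 8547 bases takes up most of its merged exons, but with offsets on reference transcript lengths its value was -0.85 (adjusted p = 0.0620) and Akt1s1 alone was called, at 0.45 (adjusted p = 0.0462), where 5.56% of all genes were called higher and 4.83% lower.

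The value of Akt1s1 also went with its position, while several other genes, Deptor and Tbc1d7 among them, differed in sign from the median of their neighbours. Over the 829 tested genes of chromosome 7, which carries Akt1s1, the median log2 fold change was 0.43, the highest of 20 chromosomes, and 75.4% of these genes were positive. Of them 24.7% were called higher, against 6.99% of all genes tested. The median deviation of chromosome 7 genes from their mean over all lines was 0.22, 0.18 and 0.21 in the Myc_Utx lines and -0.13, -0.30 and -0.18 in the Myc_p53 lines. As that mean is taken over both groups, the opposite signs cannot show which group shifted. The 69 tested genes within 2 Mb of Akt1s1 had a median of 0.45, with 54 positive and 21 called higher. The number of copies of the chromosome in these lines was not measured here. The value of 0.17 that Akt1s1 had with the median of its chromosome taken out came with an SE of 0.09 and a 95% interval of -0.05 to 0.40.

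Tsc1 and Mapkap1 lie on chromosome 2, whose 925 tested genes had a median of -0.22, the second lowest. The 54 neighbours of Tsc1 had a median of -0.04, and those of Mapkap1 -0.14. With chromosome offsets Tsc1 stood at -0.66 (SE 0.13, adjusted p = 0.0268), and Mapkap1 turned to 0.04 (adjusted p = 0.859). Deptor, on chromosome 15 with a median of 0.05, lay far from its surroundings, since its 10 tested neighbours had a median of 0.21 and 1 of them was called lower. Its value was -1.24 (SE 0.23, adjusted p = 0.0257) with chromosome offsets. Mtor passed the threshold in that fit at -0.50 (adjusted p = 0.0475), its chromosome 4 having a median of 0.07. Mlst8 and Tsc2 lie within each other's 2 Mb window, which had a median of 0.01, and had values of opposite sign. In that fit 3 of the 10 genes were called lower, and none higher (edgeR) either at an adjusted or at an unadjusted p under 0.05, against 7.76% and 6.85% of all genes. With offsets for length, GC content and chromosome together, Deptor alone passed, at -1.07 (SE 0.23, adjusted p = 0.0406), where 4.93% of all genes were called higher and 5.40% lower.

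**Figure D4:**
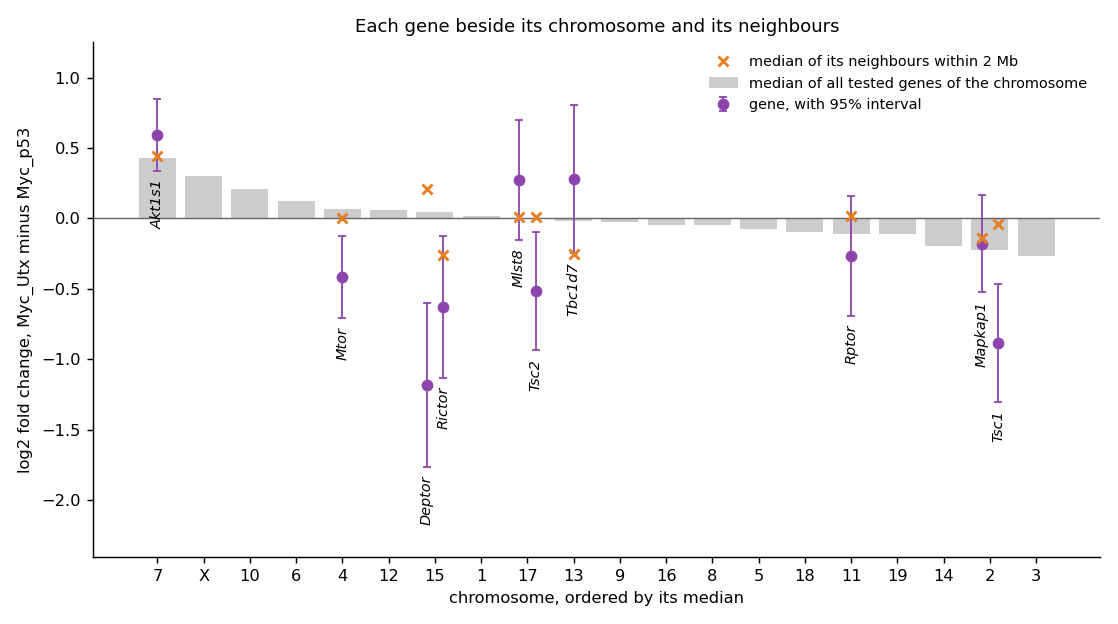
Grey bars give the median log2 fold change (Myc_Utx minus Myc_p53) of the tested genes of each chromosome, ordered from highest to lowest, purple points each mTOR or TSC complex gene with its 95% interval, and orange crosses the median of its tested neighbours within 2 Mb. Akt1s1 at 0.59 sits just above its chromosome (0.43) and its neighbours (0.45), while Deptor at -1.18 lies far below both.

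Per kilobase of deposited length, Akt1s1 had the highest level of the 10 genes in each of the 6 lines, with 42.0 ± 1.57 CPM per kilobase (SD, n = 3) in Myc_Utx and 27.8 ± 1.89 in Myc_p53, and Mapkap1 the second, with 14.8 ± 1.46 and 16.7 ± 1.83. In Myc_Utx lines Mtor (10.6 ± 0.97), Tsc2 (8.64 ± 0.59) and Mlst8 (7.25 ± 0.49) followed in the same order in all 3 lines. Rptor (6.23 ± 0.72), Deptor (5.11 ± 1.27), Rictor (4.04 ± 0.91), Tbc1d7 (3.92 ± 0.62) and Tsc1 (3.74 ± 0.14) came next, and neighbours in this order overlapped from Mlst8 downwards. In Myc_p53 lines Deptor stood higher, at 11.6 ± 2.40, beside Mtor (14.1 ± 1.10) and Tsc2 (12.4 ± 2.58), whose ranges overlapped. Rptor (7.50 ± 1.50), Tsc1 (6.90 ± 1.41), Rictor (6.25 ± 1.11) and Mlst8 (6.01 ± 0.80) again overlapped with their neighbours, and Tbc1d7 was lowest in each line at 3.23 ± 0.36. The order depended on the length used. With the length of the reference transcript, Tbc1d7, whose merged exons are 3.24 times as long as that transcript, had 12.7 ± 2.02 CPM per kilobase in Myc_Utx and Deptor the lowest mean there, 5.31 ± 1.32, while Akt1s1 was first in all 6 lines with either length.

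Subunit ratios within a line do not depend on its library size, and 8 were compared on per-kilobase levels. Groups of lines did not overlap for 6 of the 8, with the p of 0.1 that is the smallest a two-sided exact permutation test of 3 against 3 lines can give (0.133 adjusted over the 8 ratios), so none could pass the threshold. The log2 ratio of the inhibitor Akt1s1 to Deptor, the other inhibitory subunit, was 2.67, 3.02 and 3.51 in Myc_Utx lines and 1.12, 1.58 and 1.14 in Myc_p53 lines. The means of 3.07 and 1.28 differed by 1.79, the widest gap of the 8. This ratio pairs the member that rose most with the one that fell most. Its gap thus restates their fold changes and is no separate support. How often other pairs of genes would not overlap was not computed. That of Tbc1d7 to Tsc1 was 0.03, -0.20 and 0.36 in Myc_Utx lines and -1.01, -1.29 and -0.92 in Myc_p53 lines, a difference of 1.14. By the deposited length the 2 subunits were thus at like levels in Myc_Utx, while Tsc1 exceeded Tbc1d7 in each Myc_p53 line. With reference transcript lengths this turned around. Tbc1d7 then had a mean of 12.7 CPM per kilobase against 5.74 for Tsc1 in Myc_Utx, and 10.5 against 10.6 in Myc_p53. Only the difference between groups does not depend on the length used.

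Per unit of the kinase, both other shared subunits differed in opposite directions. The log2 ratio of Deptor to Mtor was -0.58, -1.10 and -1.54 in Myc_Utx lines and -0.08, -0.51 and -0.31 in Myc_p53 lines, a difference of -0.77. That of Mlst8 to Mtor was -0.49, -0.58 and -0.53 in Myc_Utx lines and -1.38, -0.88 and -1.43 in Myc_p53 lines, a difference of 0.70. In the first ratio line 2A lay close to Myc_p53 line 2, whereas the second set the groups well apart. The log2 ratio of Akt1s1 to Rptor had means of 2.76 and 1.91, and that of Tsc1 to Tsc2 means of -1.21 and -0.84. After offsets for length and GC content the groups still did not overlap for the same number of ratios, with differences of 1.51 for Akt1s1 to Deptor, 0.87 for Tbc1d7 to Tsc1, -0.84 for Deptor to Mtor and 0.41 for Mlst8 to Mtor.

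The balance between the complexes, read as the log2 ratio of Rptor to Rictor, was 0.69, 1.04 and 0.18 in Myc_Utx lines and 0.43, 0.31 and 0.04 in Myc_p53 lines. The groups overlapped, and the means of 0.64 and 0.26 did not differ beyond the spread (exact permutation p = 0.3). The same held for Mapkap1 to Rictor, with means of 1.89 and 1.43 (exact permutation p = 0.2). Line 2D, with the most Rictor of the Myc_Utx lines, had the lowest value of its group in both ratios.

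**Figure D5:**
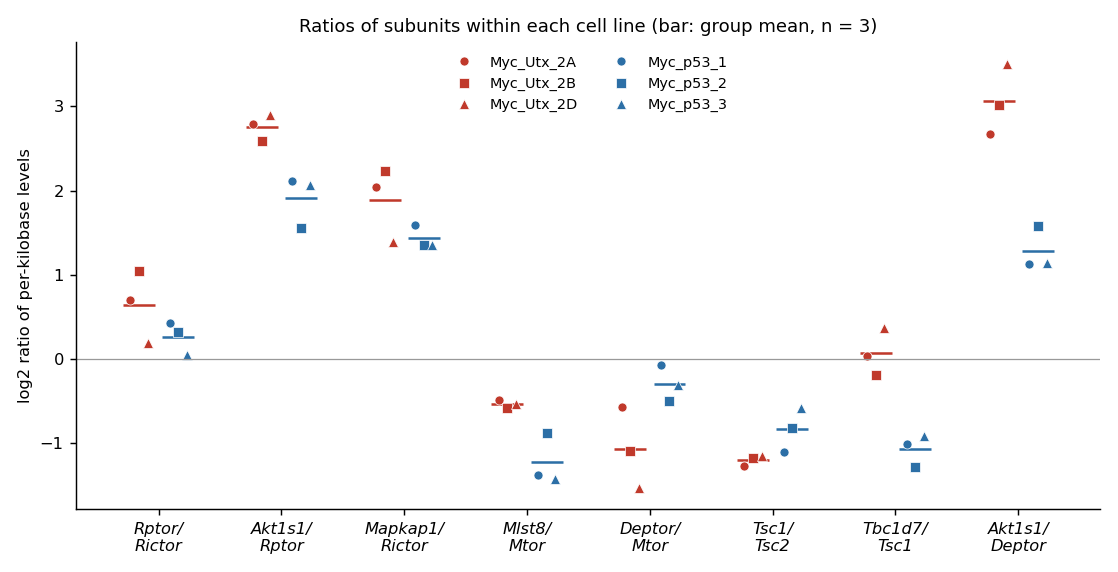
Log2 ratio of per-kilobase levels of 2 subunits in each Myc_Utx (red) and Myc_p53 (blue) line, with bars at group means (n = 3). Red and blue points are apart for 6 of 8 ratios, most widely for Akt1s1 to Deptor, and overlap for Rptor to Rictor and Mapkap1 to Rictor.

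Around the complexes, 64 genes for their assembly, inputs and substrates were listed, of which 61 were tested. Of these, 4 rose and 4 fell in Myc_Utx, and 53 did not pass the test, with a median log2 fold change of -0.00028, where 6.99% of all genes tested were called higher and 7.69% lower. Among 10 genes of assembly and associated proteins, Ruvbl2, an ATPase that helps build mTOR complexes, rose from 173, 136 and 164 CPM in Myc_p53 to 284, 289 and 291 CPM in Myc_Utx lines (log2 fold change 0.87, adjusted p = 0.0164), and the chaperone gene Hsp90ab1 rose by 0.57 (adjusted p = 0.0333). Tti1, a partner in the folding of mTOR, fell from 61.0, 58.4 and 58.0 CPM to 35.7, 32.8 and 35.0 CPM (-0.78, adjusted p = 0.0185). Prr5l, which encodes an mTORC2-associated protein, was the other gene called lower here. It had only 1, 2 and 1 counts in Myc_Utx lines against 17, 12 and 14, so that it passed the filter on low counts only through the group where it was high, and its adjusted p of 0.0177 is no support. The summed counts give a ratio of 8.52 of Myc_p53 over Myc_Utx per library size with an interval of 3.10 to 32.7 for counting error alone.

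On the side of growth factor input, 4 of 16 genes were called, 2 in each direction, where 6.99% of all genes tested were called higher and 7.69% lower. Irs2, an insulin receptor substrate, fell from 139, 102 and 123 CPM in Myc_p53 to 33.1, 37.8 and 41.9 CPM in Myc_Utx lines (-1.69, adjusted p = 0.0118). The receptor gene Igf1r, with a transcript length of 16791 bases, fell by 0.92 (adjusted p = 0.0240), with a value of -0.55 (adjusted p = 0.0832) under length and GC offsets. Akt1 and Akt2, which are also mTORC2 substrates and thus counted in both lists, rose by 0.48 (adjusted p = 0.0274) and 0.54 (adjusted p = 0.0227). Akt2 and Ruvbl2 lie on chromosome 7 like Akt1s1, and with chromosome offsets Ruvbl2 differed by 0.45 (adjusted p = 0.0278), Akt2 by 0.12 (adjusted p = 0.404), while Akt1, on chromosome 12, differed by 0.40 (adjusted p = 0.0533) and so was not called either. Igf1r, also on chromosome 7, went the other way, to -1.33 (adjusted p = 0.0114) in that fit.

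The other lists held few differences. None of 8 genes for the turnover of DEPTOR, 10 genes of energy sensing and 12 tested mTORC1 substrates passed the test (edgeR), with 0, 2 and 2 at an unadjusted p under 0.05, where 35.0% of all genes tested stood. The DEPTOR turnover list ranged from -0.30 to 0.43. Of 8 tested mTORC2 substrates only Akt1 and Akt2 were called. With length and GC offsets the whole list had 6 higher and 4 lower calls among its 61 tested genes, where 5.85% of all genes were called higher and 5.08% lower. The calls included Pik3r1 at 0.95 and the translation inhibitor Pdcd4 at -0.67, and Igf1r dropped out.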

How the data were processed

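Total RNA of 3 Myc_Utx and 3 Myc_p53 mouse liver tumour cell lines was sequenced, with 1 library per line. The deposited table gives unnormalised counts for each Ensembl gene, beside its annotation and a transcript length. The submitters' processing notes name Trimmomatic 0.36, STAR 2.5.3a, featureCounts 1.6.3, DESeq2 1.20.0 and GRCm38, whereas the methods name HTSeq and a human build. The table holds mouse genes, and 96.0% of its starts and ends equal those of GENCODE M21 (GRCm38).

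Lines were grouped by genotype label. Genes were filtered with filterByExpr (minimum count 10), scaled by TMM and tested with edgeR 4.0.16 (glmQLFit and glmQLFTest, no covariate, Benjamini-Hochberg over 11510 genes, threshold 0.05), and DESeq2 1.42.0 served as an alternative. Length and GC offsets were fitted per line by robust regression on natural splines (5 degrees of freedom) of transcript length and GC content. Chromosome offsets were the median deviation of the tested genes of each chromosome in each line, for chromosomes with at least 50 of them. The offsets for chromosomes and for reference transcript lengths were chosen after seeing the data. Per-kilobase levels were CPM divided by transcript length, and their ratios were compared by two-sided exact permutation tests. Settings were tested on simulated data. With a simulated length trend and no offsets, 18.6% of calls were false among 11711 genes, and 3.16% with offsets, while a simulated shift of chromosome 7 gave 7.11% without and 4.62% with chromosome offsets among 11782 genes. The simulated length trend was stronger than that of the data, with a Spearman correlation of -0.463 among unchanged genes against -0.249. These shares of false calls therefore do not carry over to the data.

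The genes, the lists and the comparisons were chosen with earlier results of these data known. Named genes were all 10 members, genes of the lists with an adjusted p under 0.05, Kdm6a and Kmt2c, and genes overlapping a member, to which Trp53, the markers that check the cell type, and genes called only with offsets were added after their values were seen. A minimum of 3 counts served as the limit of detection. Precision is limited by 3 lines per group. Protein sequences and a promoter of Deptor were not analysed here.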

Additional observations from a re-analysis of the deposited data

How the results depend on the processing

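Over 10 settings and the removal of each line, the negative sign of Deptor, Tsc1, Tsc2, Rictor and Mtor and the positive sign of Akt1s1, Mlst8 and Tbc1d7 held in every fit. The sign of Mtor carries little weight, since its value with reference transcript length and GC offsets was -0.0049 (edgeR, adjusted p = 0.986). With length offsets alone, 1 member was lower, Tsc1 stood at -0.61 (adjusted p = 0.0700) and Rptor turned to 0.0260. With length and GC offsets, 1 member was lower, Tsc1 stood at -0.58 and Rptor at 0.0339. With reference transcript lengths 0 were lower (edgeR, 2 at an unadjusted p under 0.05), with Deptor at -0.85, Tsc1 at -0.49 and Rptor at 0.0442. With chromosome offsets 0 members (edgeR, also 0 at an unadjusted p under 0.05) and 2 list genes were higher, with Akt1s1 at 0.17, Mapkap1 at 0.0355 and Mtor past the threshold at -0.50. With length, GC and chromosome offsets together 0 were higher and 1 lower, with Akt1s1 at 0.0659, Mapkap1 at 0.0243, Rptor at 0.10 and Tsc1 at -0.40. DESeq2 called 5 members lower, adding Mtor (-0.44), Rictor (-0.65, adjusted p = 0.0375) and Tsc2 (-0.54, adjusted p = 0.0456), where it called 13.2% of all genes lower, and 7 list genes higher and 8 lower. Scaling by total counts put Mtor at -0.48 (adjusted p = 0.0471). The causes of these changes were not tested beyond the construction of each setting.

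Without 1 line at a time, 0 to 1 members were higher and 0 to 3 lower, and 0 to 5 list genes higher and 0 to 6 lower. The shares of all genes called are not given for these fits, nor for the fit with length offsets alone. These counts therefore cannot be read as a trait of the members, as fewer lines also leave less power for every gene. Deptor ranged from -1.34 to -0.99 (-1.14 to -0.82 with length and GC offsets), Akt1s1 from 0.55 to 0.64 (0.47 to 0.62), Tsc1 from -1.01 to -0.71 and Mtor from -0.48 to -0.32. Rptor with offsets ranged from -0.10 to 0.24, at -0.02 without 2B and -0.10 without Myc_p53 line 3. No paired analysis was possible because the replicate labels 2A, 2B and 2D of one group have no counterpart among 1, 2 and 3 of the other. Totals of 4656103 to 6937497 counts and 3 lines per group limit what can be detected for Tbc1d7 and Mlst8, whose intervals include 0 and reach 0.81 and 0.70.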
